A study of Homo sapiens with 12 samples.

Results

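The cytosolic ribosome is built from ribosomal RNA and a set of proteins, those of the large subunit named RPL and those of the small subunit named RPS, with the stalk proteins RPLP0, RPLP1 and RPLP2 at the site where elongation factors bind. Their mRNAs are among the most abundant of a growing cell and carry a 5′ terminal oligopyrimidine tract (TOP), a run of C and T at the transcription start through which mTOR signalling and the RNA-binding protein LARP1 regulate their translation and stability. Members were chosen by gene name alone, with no measured value in the rule, although the family itself was selected on its share of counts in these libraries: protein-coding rows named RPL, RPS, RPLP or RPSA, without the L-suffixed paralogs, the Y-linked copy, the S6 kinases and pseudogenes. It held 77 of the 20738 genes in the table, 46 of the large subunit and 31 of the small subunit, and all 77 passed the filter on low counts in every comparison.

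RNA was sequenced from 4 groups of 3 libraries: UPCI-SCC-090 cells with 500 nM JQ1, UPCI-SCC-090 cells with 0.1% DMSO, UM-SCC-47 cells with 500 nM JQ1 and UM-SCC-47 cells with 0.1% DMSO, each for 72 h. Both are established HPV-positive head and neck squamous carcinoma lines, and JQ1 displaces BET bromodomain proteins from acetylated chromatin. Each line is a single model, and no source used here says whether the 3 libraries of a group came from separate cultures, so p-values measure only the spread between these libraries. Libraries held 20349275 to 30788657 estimated counts, and the least counted member of any library had 1952, so counting error was small beside the spread between libraries.

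Epithelial markers were present in both lines, but the basal squamous keratins KRT5 and KRT14 were low in UPCI-SCC-090. There KRT14 lay at 0.66 to 0.845 CPM (counts scaled to the library total) with JQ1 and 0.853 to 1.97 CPM with DMSO, and KRT5 at 6.31 to 9.91 CPM with JQ1 and 6.93 to 10.1 CPM with DMSO, below the fibroblast marker COL1A1 in the DMSO libraries (20.4 to 29.9 CPM), while CDH1 lay at 1288 to 1713 CPM with JQ1 and 903 to 1067 CPM with DMSO. In the same line the squamous factor TP63 lay at 56.3 to 322 CPM with JQ1 and 437 to 1108 CPM with DMSO. KRT17 lay there at 65.7 to 86.1 CPM with JQ1 and 69.8 to 110 CPM with DMSO, and KRT8 at 933 to 1570 CPM and 1150 to 1774 CPM. Over all libraries, 4 immune markers summed to at most 3.05 CPM, 2 endothelial markers to at most 8.99 CPM and 4 fibroblast markers to at most 30.1 CPM in any library. Libraries of a group differed in how gene level tracked GC content and transcript length, and these trends are given beside the results they move with.

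Starts of members that carry the results below are shown because the tract defines the family's mRNAs. Each line runs from 10 bases before to 20 bases after the RefSeq start (GRCh38.p14), on the gene's strand, and capitals mark the pyrimidine motif CTCTTT, the motif CTTTTC or the motif CTTTCC, which may overlap.
RPS12 (chr6:132814559-132814588, +): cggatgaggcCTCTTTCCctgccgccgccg
RPS6 (chr9:19380217-19380246, -): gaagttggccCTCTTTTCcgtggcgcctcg
RPS24 (chr10:78033853-78033882, +): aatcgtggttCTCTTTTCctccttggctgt
RPL35 (chr9:124861938-124861967, -): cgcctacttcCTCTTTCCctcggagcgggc
RPSA (chr3:39406710-39406739, +): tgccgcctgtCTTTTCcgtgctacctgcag
RPS28 (chr19:8321486-8321515, +): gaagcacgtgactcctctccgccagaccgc
RPL11 (chr1:23691769-23691798, +): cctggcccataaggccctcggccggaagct
RPLP0 (chr12:120201092-120201121, -): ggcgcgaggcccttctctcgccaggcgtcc
RPS12 and RPS6, high among the risers in UPCI-SCC-090, and RPL35 and RPSA, the smallest responders there, all had a motif at the start, while RPS28 and RPL11, also among the highest, had none in this window.

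RefSeq windows were found for 62 of the 77 members. At least 1 of the 3 pyrimidine motifs lay within 25 bases of a start, on the transcribed strand, in 35 members (56.5%), against 7.23% of all genes of that table. TTCCGG, the core bound by ETS factors, lay on either strand of the 300-base window in 35 members (56.5%), against 20.1% of all genes, CACGTG, the E-box, in 4 members (6.45%) against 8.77%, and AAGATGGC, a YY1 motif, in 6 members (9.68%) against 3.52%. The median log2 change with JQ1 in UPCI-SCC-090 was 1.39 over the 35 members with a pyrimidine motif and 1.42 over the 27 without. In UM-SCC-47 the same medians were 0.47 and 0.52. A match describes letters in a window and is no evidence of a site. Members without any of the 3 pyrimidine motifs may hold other tracts of C and T, so these medians do not compare TOP mRNAs with others.

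The share of all estimated counts, on which the family was selected, is given as a description with no test. In UPCI-SCC-090 the 77 genes took 11.7%, 12.2% and 11.4% of counts in the JQ1 libraries, against 4.55%, 5.74% and 6.21% in the DMSO libraries, a ratio of means of 2.13 with no overlap. In UM-SCC-47 they took 7.69%, 9.65% and 6.73% in the JQ1 libraries, against 6.95%, 6.83% and 6.58% in the DMSO libraries, a ratio of 1.18 in which JQ1 replicate 3 fell within the DMSO range. The large and small subunits kept a similar ratio to each other in UPCI-SCC-090, 1.61 ± 0.023 with JQ1 and 1.65 ± 0.048 with DMSO, while in UM-SCC-47 it was 1.84 ± 0.0070 with JQ1 and 1.68 ± 0.012 with DMSO (SD, n = 3 each). Mitochondrial ribosomal protein genes, which build a separate ribosome, took 0.451% ± 0.036 with JQ1 and 0.48% ± 0.052 with DMSO in UPCI-SCC-090, and 0.326% ± 0.039 with JQ1 and 0.414% ± 0.013 with DMSO in UM-SCC-47.

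**Figure D1:**
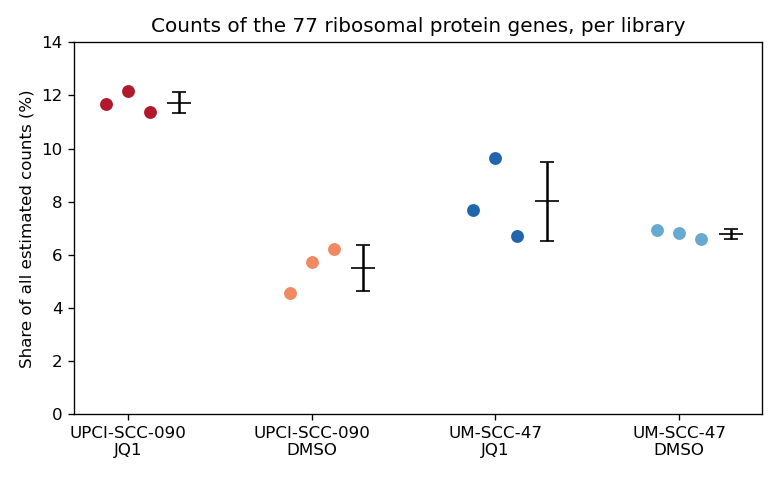
Share of all estimated counts (percent, vertical axis) taken by the 77 genes in each library of the 4 groups (points), with the mean and SD of the 3 libraries beside them. The 3 UPCI-SCC-090 JQ1 libraries lie at 11.4% to 12.2%, above the 9 other libraries, which lie at 4.55% to 9.65%.

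In UPCI-SCC-090, JQ1 was followed by higher levels of nearly the whole family. By edgeR's quasi-likelihood test 70 of 77 members (90.9%) were higher at an adjusted p under 0.05, where 7.67% of the 13150 genes tested were higher. The family was selected on its share of counts in these libraries. This count of members, and those below, therefore describe the family and are no independent support for a change in it. No member was lower, also at an unadjusted p under 0.05 or by DESeq2, where 20.4% of all genes were lower. The median member change was 1.41 on the log2 scale, against -0.14 over all genes, and the range was 0.31 to 2.16. The 3 JQ1 libraries lay above the 3 DMSO libraries for 76 of 77 members, against 15.4% of all genes, and below them for none, against 29.1% of all genes.

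RPS28, a small protein of the small subunit (ENSG00000233927, chr19:8386042-8388224 in GRCh37), had the largest change. It stood at 981, 1269 and 1072 TMM-scaled CPM in UPCI-SCC-090 JQ1 libraries, against 161, 303 and 280.2 CPM in DMSO libraries. Its log2 change was 2.16 (SE 0.29, edgeR adjusted p = 0.00445), and the groups did not overlap. RPS12, also of the small subunit, had 1049, 865 and 1228 CPM with JQ1, against 229, 212 and 304 CPM with DMSO, and a log2 change of 2.08 (SE 0.23, edgeR adjusted p = 0.00377).

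RPL11, which with RPL5 and 5S ribosomal RNA can bind MDM2 and so stabilise p53, had 1656, 1644 and 2035 CPM with JQ1, against 398, 431 and 438 CPM with DMSO. Its log2 change was 2.07 (SE 0.17, edgeR adjusted p = 0.0037). RPL5 had 1645, 853 and 1989.7 CPM with JQ1, against 543, 275 and 484 CPM with DMSO, and a log2 change of 1.78 (SE 0.40, edgeR adjusted p = 0.0184). JQ1 replicate 2 was the low library of RPL5 in the JQ1 group and DMSO replicate 2 in the DMSO group. RPS4X, encoded on the X chromosome, had 2228, 1973 and 2693 CPM with JQ1, against 562, 542 and 597 CPM with DMSO, and RPL23, another protein able to bind MDM2, had 1512, 1406 and 1689 CPM with JQ1, against 379, 335 and 428 CPM with DMSO. Both were about 4-fold higher, at 2.02 (SE 0.18) and 2.01 (SE 0.18) on the log2 scale, with an edgeR adjusted p of 0.0037 each.

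RPS6, the substrate of the S6 kinases, had 3469, 1845 and 3978 CPM with JQ1, against 869, 568 and 920.0 CPM with DMSO. Its log2 change was 1.98 (SE 0.35, edgeR adjusted p = 0.00826). RPLP1 of the stalk had 4725, 5701 and 5572 CPM with JQ1, against 964, 1778 and 1515 CPM with DMSO, and a log2 change of 1.91 (SE 0.26). Its partners changed less, RPLP2 by 1.34 (SE 0.24) and RPLP0, the scaffold of the stalk, by 0.86 (SE 0.26, edgeR adjusted p = 0.0519), so RPLP0 missed the threshold, which it passed with the replicate number as a block (0.90, adjusted p = 0.019). RPL41, the shortest ribosomal protein, had 2909, 2536 and 2977 CPM with JQ1, against 812, 799 and 1125 CPM with DMSO. Of the members described in every case, RPS27A, made as a ubiquitin fusion, changed by 1.55, RPS19, mutated in Diamond-Blackfan anaemia, by 1.54, RPS3, near the mRNA entry channel, by 1.46, RPS14 by 1.39, RPL22 by 1.31, RPL3, near the peptidyl transferase centre, by 1.03, RPL13A by 1.00 and RPL10, which joins the large subunit late, by 0.99, all past the threshold. RPL5 lost the call without DMSO replicate 3, and RPL22, RPL13A and RPL10 without DMSO replicate 3 or JQ1 replicate 1, RPL22 and RPL10 also without DMSO replicate 2 and RPL10 without JQ1 replicate 2 (adjusted p of at most 0.0775).

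The members that did not pass the threshold in UPCI-SCC-090 included RPL35, RPSA, RPS2, RPS9, RPLP0 and RPS3A. With the replicate number as a block RPS2 (0.69, edgeR adjusted p = 0.0444), RPS9 (0.88, adjusted p = 0.0286) and RPS3A (1.11, adjusted p = 0.00751) passed, as RPLP0 did, and RPL35 (adjusted p = 0.261) and RPSA (adjusted p = 0.107) did not. The replicate numbers were not shown to mark pairs, so these calls are an alternative only. RPL35, of the large subunit near the exit tunnel, had 1390.3, 1498 and 1345 CPM with JQ1, against 788, 1373 and 1259 CPM with DMSO. It was the 1 member whose groups overlapped, and its log2 change was 0.31 (SE 0.24, edgeR adjusted p = 0.395). RPSA, also known as the laminin receptor precursor, had 1024, 1227 and 1044 CPM with JQ1, against 515, 929 and 894 CPM with DMSO, and a log2 change of 0.50 (SE 0.26, edgeR adjusted p = 0.211). In both genes DMSO replicate 1 was the lowest library.

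**Figure D2:**
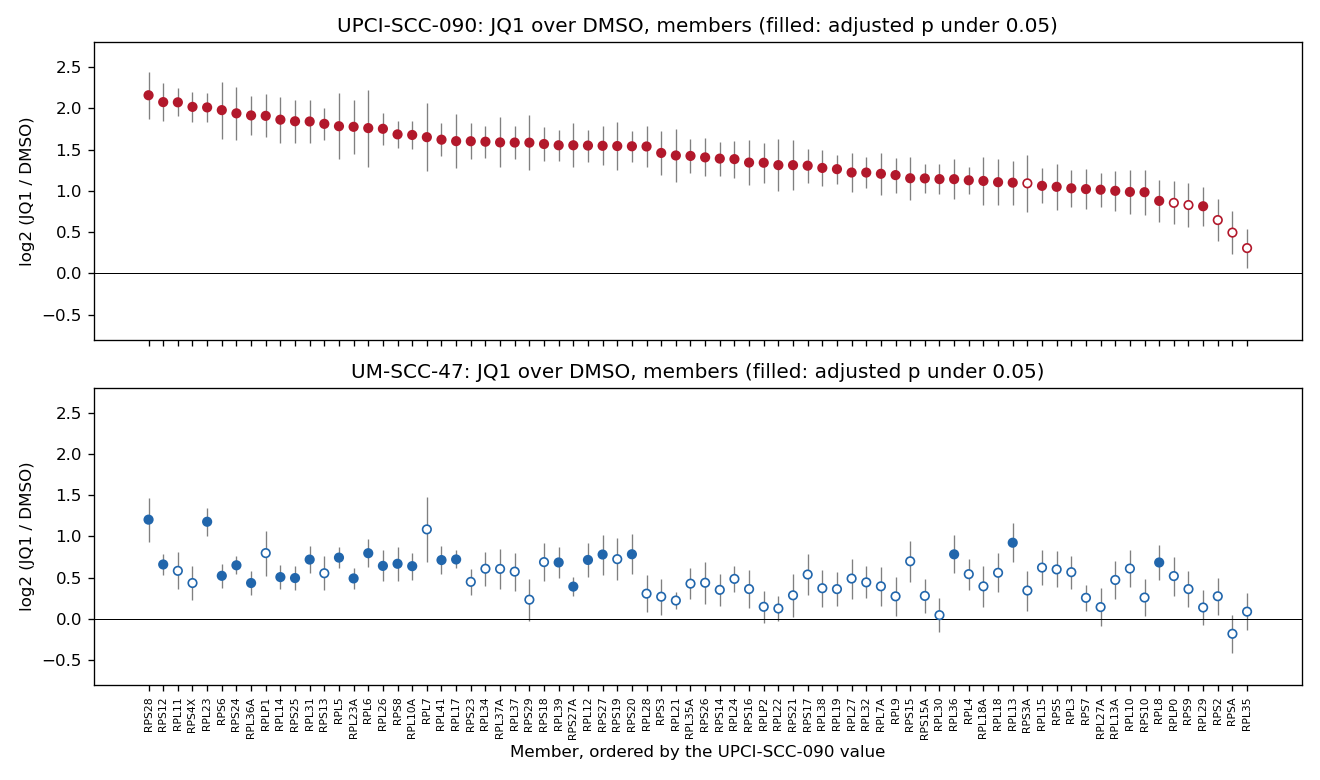
log2 change of JQ1 over DMSO (vertical axis) with its standard error for the members, in UPCI-SCC-090 above and UM-SCC-47 below, ordered by the UPCI-SCC-090 value; filled points passed an adjusted p of 0.05. All values shown are above 0 in UPCI-SCC-090, and in UM-SCC-47 all but that of RPSA, which was at -0.18.

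Over all genes of UPCI-SCC-090, the trend of level with transcript length differed between JQ1 and DMSO libraries. Libraries also differed in their trend with GC content. Per 10 points of GC content, gene levels deviated from the line's mean by -0.29, 0.37 and -0.84 log2 units in UPCI-SCC-090 JQ1 libraries, against -0.16, 0.76 and 0.17 in DMSO libraries, so the groups overlapped. Per doubling of length, they deviated from the line's mean by -0.22, -0.26 and -0.17 log2 units in UPCI-SCC-090 JQ1 libraries, against 0.35, 0.16 and 0.14 in DMSO libraries, so that short transcripts stood higher with JQ1, and 44 of the 77 members are under 1000 nt against 872 of 14137 tested genes with a length. Among transcripts under 1000 nt in UPCI-SCC-090, the median log2 change was 1.36 over the 44 members and 0.29 over the 736 other genes, and among those of 1000 to 2000 nt it was 1.54 over 16 members and 0.04 over 2381 others. After a correction of each library for GC content and length, 24 members were higher. The member median was then 0.65, against -0.23 over all genes. With the replicate block added 42 members were higher, with a member median of 0.61. The share of all genes called in these corrected fits is not reported here, so the counts describe the members only. With correction and block RPS28 was at 1.82 (edgeR adjusted p = 0.00159), RPL23 at 1.50, RPS4X at 1.26, RPL11 at 1.19 and RPS6 at 0.96, all still past the threshold. RPSA was at -0.19 and RPL35 at -0.33. RPL14 at 2.03, RPL28 at 1.99 and RPL37 at 1.78 were also higher in that fit. Their corrected values, and that of RPL23, depend on long annotated canonical transcripts, of 7136 nt for RPL14 and 2706 nt for RPL23. RPS27A was at 0.29 with the correction (edgeR adjusted p = 0.357) and 0.27 with the block added (adjusted p = 0.318), and RPLP2 at 0.72 and 0.63 (adjusted p = 0.125 and 0.119), so both lost the call either way. RPS12, RPL5, RPS3, RPL3, RPL13A and RPL41 lost it with the correction and kept it with the block added.

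**Figure D3:**
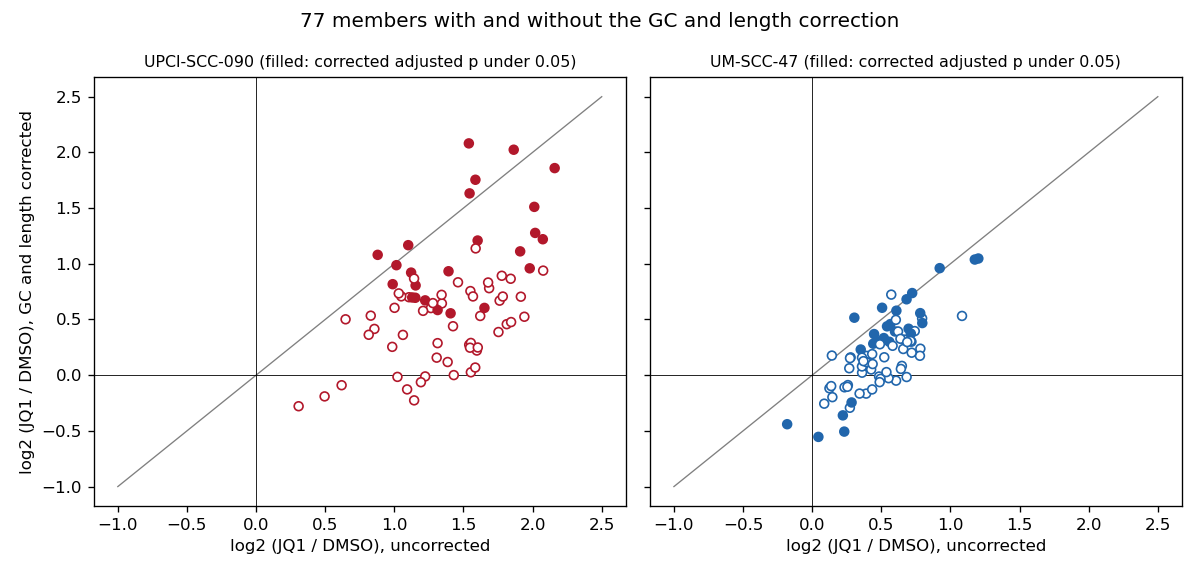
log2 change of JQ1 over DMSO for the 77 members without (horizontal axis) and with (vertical axis) correction for GC content and transcript length, UPCI-SCC-090 left and UM-SCC-47 right, the grey line marking equal values and filled points a corrected adjusted p under 0.05. Most members lie below the line in UPCI-SCC-090, where the median was 1.41 uncorrected and 0.65 corrected.

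In UM-SCC-47 the change was smaller and fewer members passed. By edgeR 25 of 77 members (32.5%) were higher, where 16.1% of 13440 genes tested were higher, and no member was lower, also at an unadjusted p under 0.05 or by DESeq2, where 25.5% of all genes were lower. The median member change was 0.51, against -0.03 over all genes, with a range of -0.18 to 1.20. JQ1 libraries lay above DMSO libraries for 49 members (63.6%), against 22.4% of all genes, and below them for none, against 32.9% of all genes. All 25 members called here were also called in UPCI-SCC-090.

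The count rested on single libraries. It was 56 without JQ1 replicate 3, 13 without JQ1 replicate 1, and 6, 7 and 7 without DMSO replicates 1, 2 and 3. The median member deviation from the line's mean was 0.14, 0.63 and -0.04 log2 units in JQ1 replicates 1, 2 and 3, against -0.21, -0.25 and -0.25 in the DMSO replicates, so JQ1 replicate 2 was high and replicate 3 lowest of the JQ1 libraries. The length trend was also steepest in JQ1 replicate 2, at -0.27 per doubling against -0.05 and 0.07 in the other JQ1 libraries. RPL17, RPL23, RPL5, RPS12 and RPS24 were higher in the full fit and in every fit that left out 1 library of this line. Of these 5, RPL23 alone kept the call with GC and length corrected (1.04, edgeR adjusted p = 0.000906), while RPL5 was then at 0.40 (adjusted p = 0.0686), RPS12 at 0.24, RPL17 at 0.20 and RPS24 at 0.08. RPL23 was corrected at an annotated canonical length of 2706 nt, on which its corrected value depends. Per 10 points of GC content, gene levels deviated by -0.014, 0.15 and -0.51 log2 units in JQ1 replicates 1, 2 and 3, against 0.12, 0.24 and 0.015 in the DMSO replicates. With GC and length corrected, 21 members were higher and 5 lower, of which 7 of the higher had been called before. The member median was then 0.18, against -0.08 over all genes. For this fit, and for those that left out a library, the share of all genes called is not reported here. The 5 lower were RPL30 at -0.55, RPS29 at -0.51, RPSA at -0.44, RPL21 at -0.36 and RPS21 at -0.24 (edgeR adjusted p of at most 0.0485). The 8 epithelial markers summed to 36193 to 48803 CPM with JQ1, against 10490.4 to 11977 CPM with DMSO, in UM-SCC-47. The sum was mostly KRT8, at 22243 to 28247 CPM with JQ1 and 5543 to 6858 CPM with DMSO, and KRT18, at 11395 to 17524 CPM with JQ1 and 2413 to 2579 CPM with DMSO, whereas KRT5 lay at 138 to 175 CPM with JQ1 and 613 to 737 CPM with DMSO, TP63 at 33.1 to 61.3 CPM with JQ1 and 323 to 542 CPM with DMSO, and CDH1 at 594 to 674 CPM with JQ1 and 799 to 858 CPM with DMSO. The part of these markers in the family's values was not tested; in bulk RNA, a change in the cells present and a change in RNA per cell cannot be told apart.

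RPS28 led here too, with 457, 706 and 337 CPM in UM-SCC-47 JQ1 libraries, against 225, 209 and 217 CPM in DMSO libraries, and a log2 change of 1.20 (SE 0.27, edgeR adjusted p = 0.0127). RPL23 had 994, 1383 and 979 CPM with JQ1, against 511, 475 and 499 CPM with DMSO, and a log2 change of 1.18 (SE 0.17, edgeR adjusted p = 0.00244). Neither gene's groups overlapped. RPL13, RPL6 and RPS20 followed at 0.92, 0.80 and 0.78.

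RPL5 had 863, 987 and 929 CPM with JQ1, against 586, 492 and 583 CPM with DMSO, and a log2 change of 0.74 (SE 0.13, edgeR adjusted p = 0.00462), while its partner RPL11 had 1056, 1562 and 938 CPM with JQ1, against 872, 675 and 829 CPM with DMSO, and a log2 change of 0.58 that missed the threshold (SE 0.22, edgeR adjusted p = 0.0809). RPS24, a small subunit protein, had closely grouped values of 939, 924 and 971 CPM with JQ1, against 564, 630.5 and 613 CPM with DMSO. RPL41 at 0.71, RPS6 at 0.52 and RPS27A at 0.39 also passed. RPLP1 at 0.80, RPS19 at 0.72, RPL10 at 0.61, RPL3 at 0.57, RPLP0 at 0.52, RPL13A at 0.47, RPS14 at 0.35, RPS3 at 0.27, RPLP2 at 0.15 and RPL22 at 0.12 did not. Without correction RPSA was the 1 member with a negative value, with 1478, 2366 and 1358 CPM with JQ1, against 2031, 2044 and 1822 CPM with DMSO, and its groups overlapped (edgeR adjusted p = 0.563). With GC and length corrected RPSA was lower at -0.44 (edgeR adjusted p = 0.00988).

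**Figure D4:**
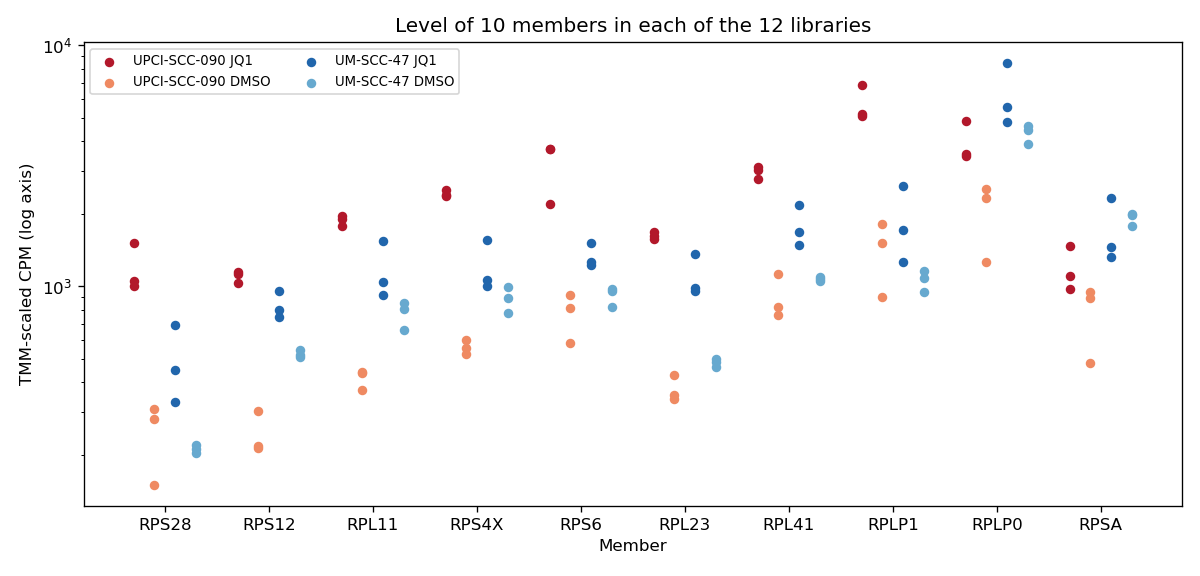
CPM with TMM scaling over all 12 libraries together (log axis) of 10 members in the 12 libraries, each point 1 library, the groups from left to right UPCI-SCC-090 JQ1, UPCI-SCC-090 DMSO, UM-SCC-47 JQ1 and UM-SCC-47 DMSO. RPS4X lies at 2357 to 2509 CPM in UPCI-SCC-090 JQ1 libraries and at 524 to 598 CPM in UPCI-SCC-090 DMSO libraries.

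The response was tested for a difference between the lines in 1 fit over all 12 libraries. CPM set between the lines are scaled over these 12 libraries, whereas CPM within a line, above, are scaled over its 6 libraries, so the same library has other values on each scale. By value all 77 members changed more in UPCI-SCC-090, and 19 (24.7%) did so past an edgeR adjusted p of 0.05, where 2.93% of 14396 genes were higher. No member differed the other way, also at an unadjusted p under 0.05 or by DESeq2, where 3.63% of all genes did. RPS4X had the largest difference, 1.67 on the log2 scale (SE 0.28, edgeR adjusted p = 0.00501), followed by RPL11 at 1.58 (SE 0.29), RPL36A at 1.57 (SE 0.28), RPS6 at 1.52 (SE 0.34) and RPS12 at 1.50 (SE 0.26). RPL22 at 1.27 and RPS27A at 1.24 also passed. Of these 7, RPS4X alone passed under every alternative tried, with an adjusted p of at most 0.0476. The count was 40 without UM-SCC-47 JQ1 replicate 2 and 6 to 12 without any of 9 other libraries: UM-SCC-47 JQ1 replicates 1 and 3, the 3 UM-SCC-47 DMSO replicates, the 3 UPCI-SCC-090 DMSO replicates and UPCI-SCC-090 JQ1 replicate 1.

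Between the lines with DMSO, 21 members (27.3%) were lower in UPCI-SCC-090 and 4 (5.19%) were higher, where 19.9% of all genes were lower and 23.3% higher. RPS24 had 255, 148 and 240.1 CPM in UPCI-SCC-090 DMSO libraries, against 549, 614 and 596 CPM in UM-SCC-47 DMSO libraries, a log2 difference of -1.45 (SE 0.22, edgeR adjusted p = 0.000193). RPL14 was at -1.40, RPSA at -1.30, RPL37 at -1.29 and RPS20 at -1.23. RPLP0 was at -1.08 and RPLP2 at -0.85, so 2 of the 3 stalk proteins were lower. RPS15, a small subunit protein, was higher, with 249, 490.1 and 430.0 CPM in UPCI-SCC-090 DMSO libraries, against 150.1, 158 and 141 CPM in UM-SCC-47 DMSO libraries (1.38, SE 0.31, edgeR adjusted p = 0.00313), as were RPL36 at 1.16, RPS26 at 0.90 and RPS27 at 0.76. The count higher was 2 without UM-SCC-47 DMSO replicate 2 or 3 or UPCI-SCC-090 DMSO replicate 2 or 3.

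With JQ1, 44 members (57.1%) were higher in UPCI-SCC-090 against UM-SCC-47, where 24% of all genes were higher. By edgeR no member was lower, where 20.9% of all genes were, with 1 lower at an unadjusted p under 0.05 and none by DESeq2. The count higher was 16 without UM-SCC-47 JQ1 replicate 3, with 7 then lower, 27 without UM-SCC-47 JQ1 replicate 1, and 23 and 21 without UPCI-SCC-090 DMSO replicates 1 and 3. RPS29 had 1269, 1831 and 1007 CPM in UPCI-SCC-090 JQ1 libraries, against 295, 475 and 239 CPM in UM-SCC-47 JQ1 libraries, a log2 difference of 2.03 (SE 0.36, edgeR adjusted p = 0.000738). RPS26 at 1.96, RPS15 at 1.93, RPS25 at 1.69 and RPS27 at 1.62 followed. RPS15, RPS26, RPS27 and RPL36 (1.16 with DMSO and 1.61 with JQ1) were thus higher in UPCI-SCC-090 under both treatments. RPS27 with DMSO was at 0.31 (edgeR adjusted p = 0.427) without UPCI-SCC-090 DMSO replicate 3, and RPS26 at 0.66 (adjusted p = 0.122). RPS4X and RPL11 were lower in UPCI-SCC-090 with DMSO (-0.66 and -0.89) and higher with JQ1 (1.00 and 0.69). The value of RPL11 with JQ1 lost the call without UM-SCC-47 JQ1 replicate 1 (0.62) or 3 (0.20, edgeR adjusted p = 0.451), without UPCI-SCC-090 DMSO replicate 1 or 3 (0.39 each), with GC and length correction (0.32) and with RLE scaling (0.57).

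**Figure D5:**
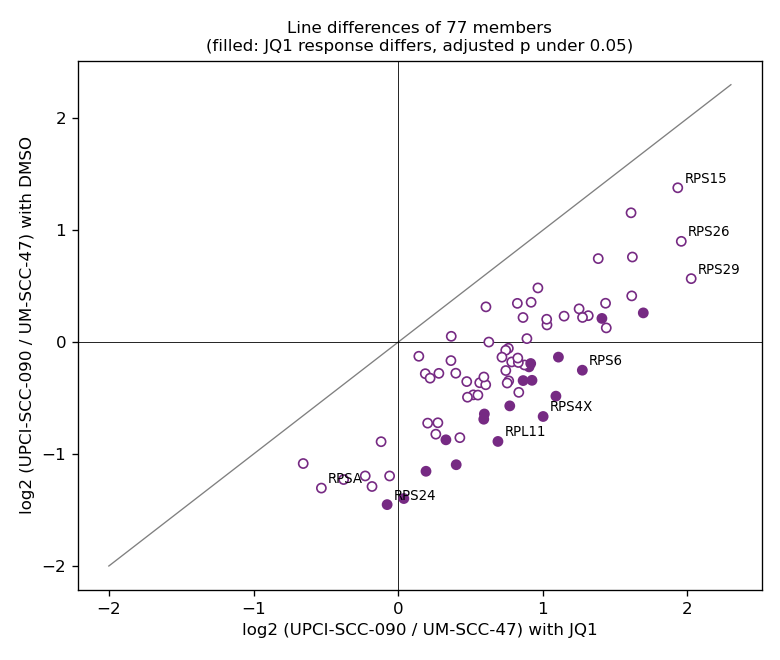
log2 difference of UPCI-SCC-090 over UM-SCC-47 for the 77 members with JQ1 (horizontal axis) and with DMSO (vertical axis), the grey line marking equal values; filled points are the 19 members whose JQ1 response differed between the lines. All 77 points lie below the line, RPS15 at 1.93 with JQ1 and 1.38 with DMSO, and RPS24 at -0.08 with JQ1 and -1.45 with DMSO.

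Levels were compared between members only per length, as CPM per kilobase of the canonical transcript. RPS27 was highest in UPCI-SCC-090 with JQ1, at 8830.3 ± 993, followed by RPS18 and RPLP1, and also with DMSO, at 2810.1 ± 883, followed by RPL35 and RPS2. RPLP0 was highest in UM-SCC-47 with JQ1, at 5652 ± 1722, followed by RPS18 and RPS2, and also with DMSO, at 3909 ± 342, followed by RPS2 and RPL35 (SD, n = 3 each). RPL14 was lowest in all 4 groups, between 14.3 and 55.6, with RPL28 among the lowest 3 of each, joined by RPL27A in UPCI-SCC-090 with JQ1, RPL37 there with DMSO and RPS26 in UM-SCC-47 under both treatments. RPL14, RPL28, RPL27A and RPL37 have annotated canonical transcripts of 4209 to 7573 nt, so their levels per length depend on that choice. The order changed with the length of all merged exons. RPS27 then led in UPCI-SCC-090 with JQ1 alone (3024 CPM per kilobase), while RPL8 led there with DMSO (1003, against 962 for RPS27), RPL41 in UM-SCC-47 with JQ1 (1603, against 1566 for RPLP0) and RPS2 there with DMSO (1085, against 1083 for RPLP0). RPL14 was then lowest in UPCI-SCC-090 under both treatments, and RPS29 in UM-SCC-47 with JQ1 (34.2, against 44.8 for RPL14) and with DMSO (28.8, against 31.2). The median member stood at 1750.4 CPM per kilobase in UPCI-SCC-090 with JQ1 and 628 with DMSO, and at 970.4 in UM-SCC-47 with JQ1 and 728 with DMSO. By group mean in CPM, 69 members were highest in UPCI-SCC-090 with JQ1, and 52 were lowest in UPCI-SCC-090 with DMSO.

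Of 18 translation factors and other genes with TOP mRNAs, 5 (27.8%) were higher with JQ1 in UPCI-SCC-090 (median log2 change 0.84), where 7.67% of all genes were higher, and 4 (22.2%) in UM-SCC-47 (median 0.42), where 16.1% were. Among them were TPT1 at 1.60 and 1.09, and EEF1A1, the factor that delivers aminoacyl-tRNA, at 1.45 and 0.87. Of 76 mitochondrial ribosomal protein genes, 7 (9.21%) were higher and 2 (2.63%) lower in UPCI-SCC-090 (median 0.21), against 7.67% and 20.4% of all genes, and 7 (9.21%) higher and 10 (13.2%) lower in UM-SCC-47 (median 0.04), against 16.1% and 25.5% of all genes. MRPS33 was higher in both lines, at 1.75 and 1.04, and MRPL11 lower in both, at -1.36 and -1.80. Among 9 paralogs and fusion genes tested, RPS27L, a p53 target, was higher at 2.66 in UPCI-SCC-090 and 2.51 in UM-SCC-47, and RPL22L1 at 1.62 and 1.38, while RPL39L was lower at -1.52 and -0.99.

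Of 18 regulators of these mRNAs, 4 (22.2%) were lower in each line, near the 20.4% of all genes lower in UPCI-SCC-090 and the 25.5% in UM-SCC-47. They were MYC, at -1.43 in UPCI-SCC-090 and -0.94 in UM-SCC-47, LARP1 at -1.69 and -1.01, RPTOR, a subunit of mTOR complex 1, at -2.09 and -1.48, and TSC2, an inhibitor of mTOR signalling, at -1.55 and -0.85. Of 18 genes of ribosome assembly and RNA polymerase I, 3 (16.7%) were lower in UPCI-SCC-090, against 20.4% of all genes, and 3 (16.7%) lower and 1 higher in UM-SCC-47, against 25.5% of all genes lower, with POLR1A, the largest subunit of the polymerase, at -2.09 and -0.99 and UBTF at -1.07 and -0.62. Of 4 genes listed for the route from ribosomal proteins to p53, 1 (25%) was higher and 1 (25%) lower in UPCI-SCC-090, against 7.67% and 20.4% of all genes. In UM-SCC-47, 2 (50%) were higher and 2 (50%) lower, against 16.1% and 25.5% of all genes. CDKN1A, a p53 target, was higher at 3.80 in UPCI-SCC-090 and 2.94 in UM-SCC-47, where values of the 4 reached 3.15, and MDM4 was lower at -2.01 and -1.80.

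Many members have processed pseudogenes and a few lie in readthrough genes, so reads may have been split between copies. RPS10-NUDT3, the most counted of 3 readthrough genes, reached 60.3 CPM at most, and RPL17-C18orf32 5.04 CPM. Across the 77 members, the JQ1 change in UPCI-SCC-090 had a Pearson correlation of -0.52 with GC content (Spearman -0.51) and 0.07 with log2 length, and in UM-SCC-47 -0.07 with GC content. These points share libraries and base composition and are given as a description.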

How the data were processed

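Total RNA of the 12 libraries was depleted of ribosomal RNA and sequenced in stranded form, each on 2 lanes. The authors deposited estimated counts per gene (expected counts) from Salmon, version 0.8.2 in the submitters' processing notes, which also list DESeq2 1.28.0; their index and genome build: not given in the sources used here. Estimated counts were rounded. Genes were filtered with filterByExpr (minimum count 10, minimum total 15) and tested in R 4.3.3 with edgeR 4.0.16 (TMM scaling, quasi-likelihood test, Benjamini-Hochberg adjustment over all genes, threshold 0.05). JQ1 and DMSO were compared within each line; the difference of the responses and the line contrasts came from 1 fit over 12 libraries. SE is the log2 change over the square root of F. Fold changes are relative to library totals scaled by TMM, a trimmed mean over genes, and are no absolute amounts. DESeq2 1.42.0 was an alternative. Symbols, GRCh37 coordinates and lengths came from GENCODE, which matched 20015 of 20738 gene IDs; promoter letters came from RefSeq. Tests were checked on simulated counts that held no GC or length trend and no difference between the lines, so the check does not bear on these.

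In UPCI-SCC-090 same-numbered JQ1 and DMSO libraries correlated at 0.10, 0.82 and 0.24 for replicates 1, 2 and 3. JQ1 replicate 3 correlated most with DMSO replicate 1 (0.83), so these values do not show that the numbers mark pairs. The replicate block is therefore given only as an alternative. Alternatives were other scalings, no filter, replicate block, GC and length correction (splines, 5 degrees of freedom) and leaving out each replicate. Corrections for GC or length alone, and leaving out 3 libraries of steep GC trends, were chosen after seeing the data. Members and lists were chosen with earlier results of these data known. Named members were up to 5 called with the largest change in each direction and 16 members in any case; genes of other lists were up to 3 called per direction. Members named as not called in UPCI-SCC-090, and members named for holding in every leave-one-out fit, were chosen after their values were seen. So were members named as lower after correction in UM-SCC-47 or for their annotated length. A few genes of the lists are not reported here by name, and 1 is not drawn in the plot of changes by member.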

Additional observations from a re-analysis of the deposited data

Results flagged for a closer look

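The JQ1 response of 7 of the members named by rule differed between the lines by a test of the difference itself, being larger in UPCI-SCC-090 each time. The log2 differences were 1.67 for RPS4X, 1.58 for RPL11, 1.57 for RPL36A, 1.52 for RPS6, 1.50 for RPS12, 1.27 for RPL22 and 1.24 for RPS27A, each with an edgeR adjusted p under 0.05. RPS4X alone of the 7 passed under every alternative. The others missed the threshold under at least 1, with the largest adjusted p at 0.058 for RPL11, 0.14 for RPL36A, 0.116 for RPS6, 0.0871 for RPS12, 0.184 for RPL22 and 0.274 for RPS27A, and RPS6, RPL22 and RPS27A also when single libraries were left out (up to 0.0904, 0.143 and 0.0729). Groups held 3 libraries each, too few to look for single outlying libraries.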

How the results depend on the processing

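Depth was not the limit, since the members were counted at least 1952 times in every library. RLE scaling moved the median of all genes from -0.14 to 0.14 in UPCI-SCC-090 and from -0.03 to 0.12 in UM-SCC-47, and the member median less that of all genes was 1.54 and 0.55 under RLE.

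Counts of members under alternatives, here and above, stand without the share of all genes called in the same fits. For JQ1 in UM-SCC-47, the number of members higher was 10 with library size only, 42 with DESeq2, 15 in 1 fit over all 12 libraries, 46 with GC correction and 56 with the 3 libraries of steep GC trends left out. Members lower were 5 with GC and length correction, 3 with the replicate block added and 6 with length correction. The median was 0.25, 0.18 and 0.17 with library size only, GC and length correction, and the block with that correction, and 0.76 without the 3 libraries. For JQ1 in UPCI-SCC-090, members higher were 24 with GC and length correction, 42 with the block added and 35 with length correction, which left 1 lower. The median was 1.68 with RLE and DESeq2, 1.19 with library size only, 0.65 with GC and length correction, 0.61 with the block added and 0.89 with length correction.

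For the difference of responses, members higher were 32 with library size only, 38 with GC correction and 2 without the 3 libraries, and the median was 0.55 with GC and length correction and 0.54 with the block added. For the lines with DMSO, members higher were 2 with RLE and DESeq2, 14 with GC and length correction, 11 with the block added and 7 with length correction. For the lines with JQ1, members higher were 26 with RLE and DESeq2 and 18 without the 3 libraries. Members lower were 2 with library size only, 1 with the replicate block, 4 with GC and length correction, 5 with the block added, 2 with GC correction and 4 with length correction. Medians were 0.48 with GC and length correction, 0.44 with the block added, 0.52 with length correction and 0.50 without the 3 libraries. Merged exons gave median levels per kilobase of 468 in UPCI-SCC-090 with JQ1 and 157 with DMSO, and 242 in UM-SCC-47 with JQ1 and 183 with DMSO. Beyond corrections for length, which act on it by construction, the cause of each shift was not tested.

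Leaving out 1 library gave 6 to 56 members higher, 0 to 1 lower and medians of 0.32 to 0.76 for JQ1 in UM-SCC-47, and 52 to 68 higher and 1.29 to 1.56 in UPCI-SCC-090. It gave 6 to 40 higher and 0.73 to 1.24 for the difference of responses, 2 to 4 higher, 14 to 29 lower and -0.57 to -0.24 for the lines with DMSO, and 16 to 52 higher, 0 to 7 lower and 0.30 to 0.91 for the lines with JQ1. Shares of counts were 11.5% to 11.9% in UPCI-SCC-090 with JQ1 and 5.14% to 5.97% with DMSO, and 7.21% to 8.67% in UM-SCC-47 with JQ1 and 6.70% to 6.89% with DMSO.

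Of 1543 values of single named members under alternatives, 1265 kept direction and side of the threshold, 198 lost and 66 gained the call, and 14 turned direction. In UM-SCC-47 these were RPL22 (-0.13 with library size only, -0.12 with GC and length correction, -0.14 with the block added), RPLP2 (-0.11, -0.20 and -0.20 under the same 3, -0.29 with length correction, -0.040 to 0.46 as single replicates were left out), RPS27A (-0.17 with GC and length correction, -0.15 with the block added) and RPSA (0.11 without the 3 libraries, and -0.46 to 0.11 as single replicates were left out). In UPCI-SCC-090 RPSA was at -0.19 with GC and length correction, with or without the block.

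In UM-SCC-47 same-numbered libraries correlated at -0.22, 0.22 and 0.51, and the replicate block gave 19 members higher. The numbers were not shown to mark pairs in either line. In UPCI-SCC-090 the block gave 74 members higher and changed the calls of RPLP0, RPS2, RPS9 and RPS3A, all to higher.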
